A study of Fragaria x ananassa with 28 samples.

Results

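The transcripts of oil body proteins, late embryogenesis abundant (LEA) proteins, dehydrins and abscisic stress-ripening (ASR) proteins described here are the 146 whose Swiss-Prot description holds "oleosin", "caleosin", "peroxygenase", "late embryogenesis abundant", "dehydrin", "embryonic protein DC-8", "Em protein" or "abscisic stress-ripening", out of 301219 assembled transcripts, of which 130654 have a description. They fall into an oil body set of 74 transcripts and a LEA set of 72. The filter, 1 RPKM (reads per kilobase, relative to all reads a library counted) or more in 2 or more libraries, was passed by 63 members, 21 of the oil body set and 42 of the LEA set, in 40 assembly components. A member that passed only through the group where it was high had to differ between groups, so counts over these 63 describe them and are no evidence in themselves. Another 24 rows matched only because the letters of "Em protein" occur in "phloem protein", and these were set apart.

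Oil bodies are the droplets in which seeds store oil, and oleosins are the proteins that coat them. LEA proteins, dehydrins among them, accumulate as a seed dries and are known to protect its contents, and many are induced by abscisic acid (ABA) or by water stress in leaves and fruit too. ASR proteins are small hydrophilic proteins first described in ripening tomato fruit. In strawberry the fleshy receptacle carries the achenes, the true fruits, each holding a seed, so a sample of fruit can hold seed transcripts as well as those of the flesh.

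The samples were receptacles of the octaploid strawberry Fragaria × ananassa 'Toyonoka', grown in a greenhouse. Each fruit was injected through the pedicel with 100 µL of 1 µM ABA, of 100 µM nordihydroguaiaretic acid (NDGA, named in the labels as a blocker of ABA synthesis) or of distilled water. The 7 groups were ABA at day 5, NDGA at day 5, ABA at day 8, NDGA at day 8, and water at days 0, 5 and 8, day 0 being 2 weeks after anthesis. Each group had 2 polyA RNA libraries from pooled RNA of 10 fruits, and whether the 2 came from separate pools is not given, so the p-values measure only the spread between libraries, which may be technical. The series title places the comparisons in a study of how ABA regulates ripening. The ABA and NDGA comparisons of a day share the same 2 water libraries.

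The 14 libraries held 7356752 to 9035037 counted reads, so 1 read on a 1 kb transcript was worth 0.111 to 0.136 RPKM, and a transcript listed at 0 had no counted read, which allows an expected count of up to 3 reads, or 0.332 to 0.408 RPKM on 1 kb. These limits cover counting error only. The tissue label is receptacle, but transcripts of a list of seed storage proteins (134 transcripts, 72 tested) summed to 21329 and 19326 RPKM at day 0. At day 5 that list summed to 259 and 270.3 RPKM with ABA and 255 and 241 RPKM with NDGA, against 5394 and 5502 RPKM with water, and at day 8 all 6 libraries lay between 215 and 358 RPKM. Its most abundant members, the globulins legumin A and legumin B, averaged 1.26 and 1.63 RPKM in ABA fruit at day 5, against 447 and 493 RPKM in water fruit at day 5. In these bulk samples fewer seed cells and less RNA per seed cell cannot be told apart, and the part of either in the results below was not tested.

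**Figure D1:**
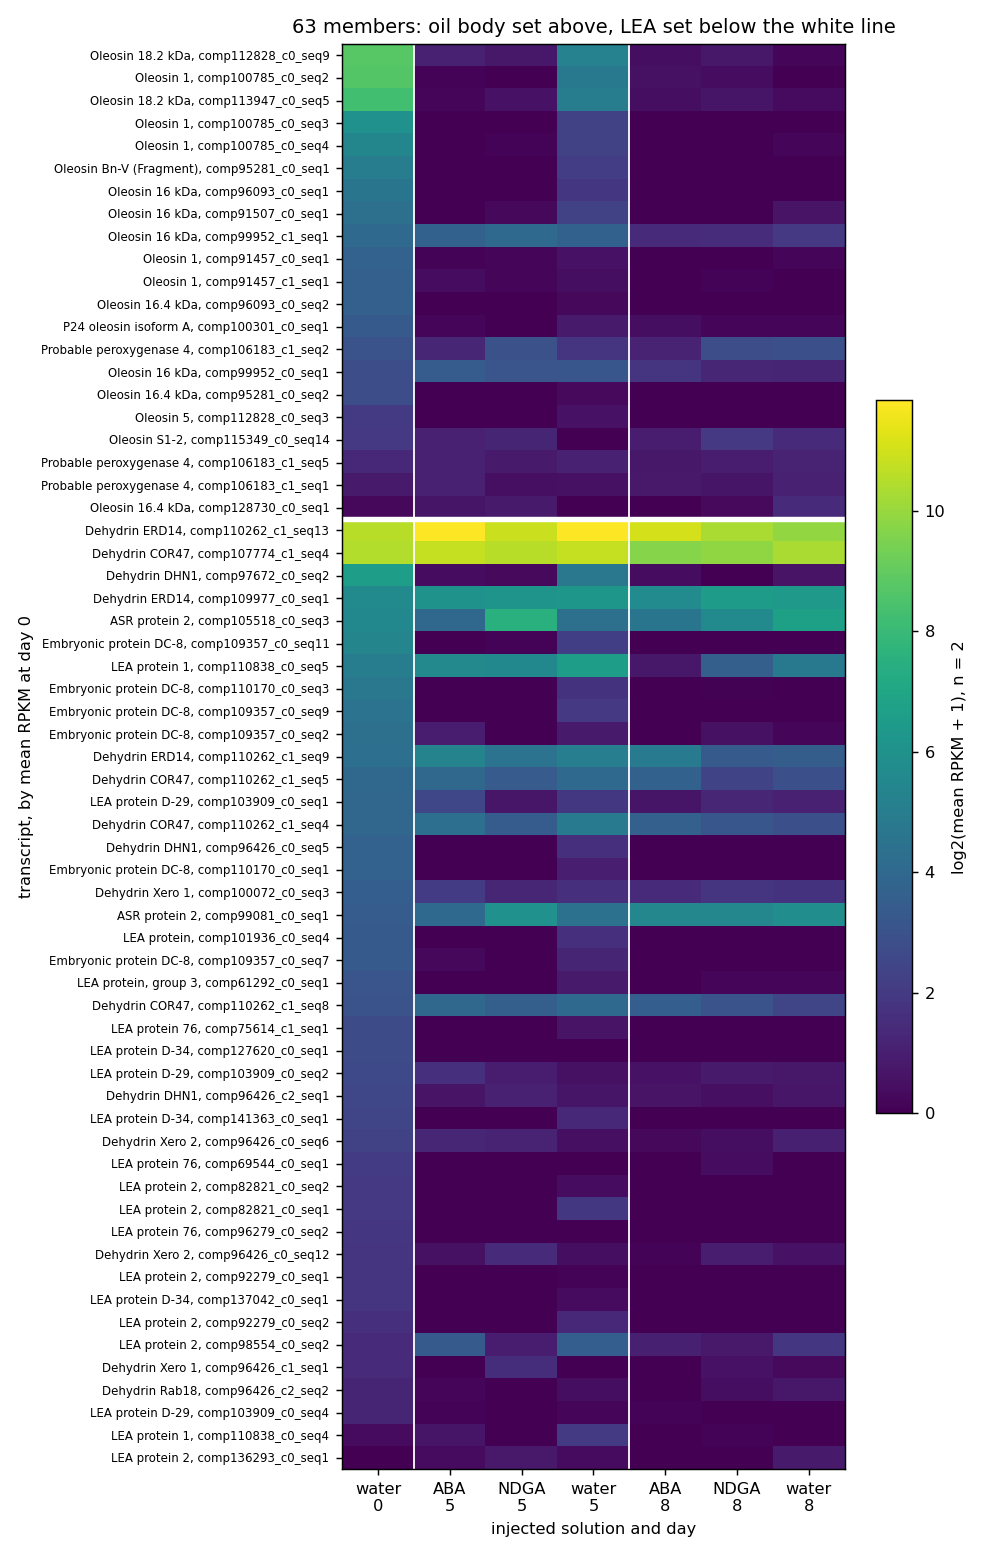
Mean level of each of the 63 members that passed the filter (rows) in the 7 groups (columns), as log2(mean RPKM + 1) over 2 libraries, with the oil body set above the white line and the LEA set below it. The left column, water at day 0, is the highest of the row for 17 of 21 oil body and 28 of 42 LEA members and the rows of ERD14 comp110262_c1_seq13 and COR47 comp107774_c1_seq4 are bright in every column.

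Most members were highest at day 0 and low by day 8, while 3 dehydrin forms and both ASR2 forms stayed above 9 RPKM in every library. The oil body set summed to 1448 and 1376 RPKM at day 0. At day 5 it summed to 28.0 and 32.0 RPKM with ABA and 38.2 and 32.5 RPKM with NDGA, against 141 RPKM in each of the 2 water libraries. At day 8 it summed to 10.3 and 8.79 RPKM with ABA, 19.0 and 12.1 RPKM with NDGA, and 16.5 and 20.7 RPKM with water. The LEA sum did not decline in this way. It averaged 3497 ± 349 RPKM at day 0, 5623 ± 278 with ABA, 3877 ± 18.6 with NDGA and 5839 ± 183 with water at day 5, and 3166 ± 187 with ABA, 2447 ± 238 with NDGA and 2582 ± 162 with water at day 8 (SD, n = 2 each). Only 2 forms, one of dehydrin ERD14 and one of dehydrin COR47, made up 84.6% of the LEA sum at day 0, 93.5% at day 5 and 88.1% at day 8 in water fruit. Without these 2 forms the sum did decline in water, from 516 and 562 RPKM at day 0 to 366 and 388 at day 5 and 315 and 302 at day 8. At day 5 this remainder was 257 and 251 RPKM with ABA and 437 and 412 RPKM with NDGA. At day 8 it was 171 and 203 RPKM with ABA and 227 and 236 RPKM with NDGA.

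**Figure D2:**
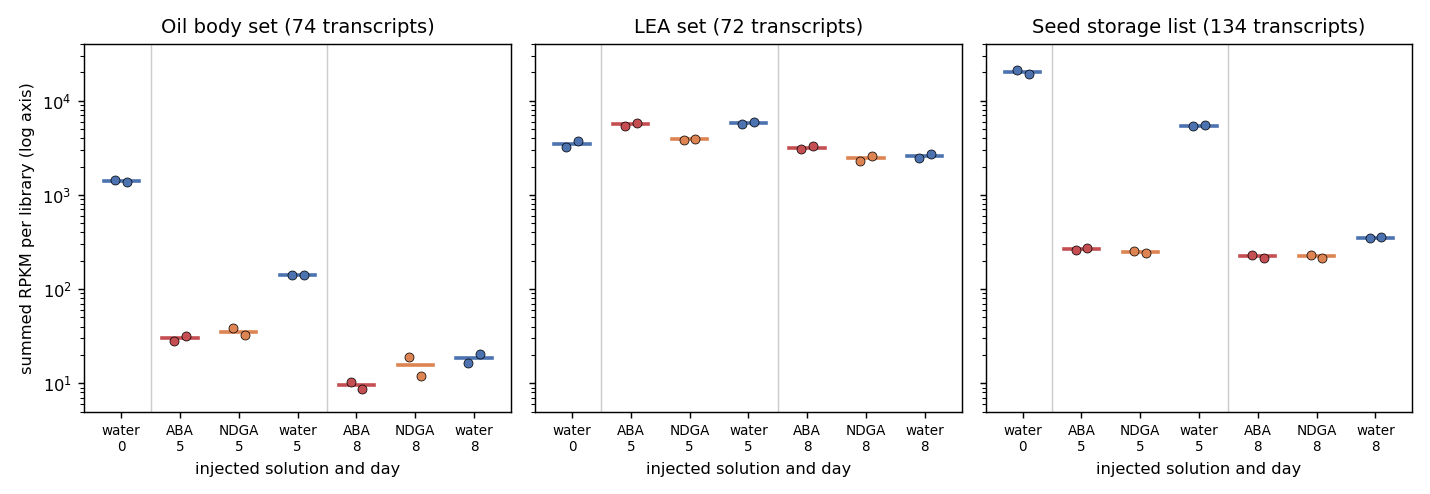
Summed RPKM in each library (points, with the mean of 2 as a bar; log axis) of all 74 oil body, 72 LEA and 134 seed storage transcripts, by day with ABA and NDGA left of water. Oil body and storage sums at day 5 were lower in all 4 ABA and NDGA libraries than in both water libraries, while the LEA sum stayed between 2279 and 5968 RPKM.

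Of the 83 members that did not pass the filter, 53 were oil body and 30 LEA transcripts, and 41 and 14 of these were at 0 in all 14 libraries. Among them were all rows described only as peroxygenase (7), oleosin-B6 (10), oleosin GRP-17 (6) and P24 oleosin isoform B (3), and no row held the word caleosin. The highest value of any of these was 8.49 RPKM, for a form of LEA protein Lea5 in a single water library at day 0. An assembly component can gather near-identical forms, such as alleles, subgenome copies and splice variants, whose reads the authors' counting may have split, so values of single forms are uncertain. Some components also hold forms described as other proteins. Those of comp112828_c0_seq9 and comp113947_c0_seq5, both oleosin 18.2 kDa, hold outer row dynein assembly protein 16, and that of ASR2 comp105518_c0_seq3 holds protein PAM68.

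Oleosins led the oil body set. In water fruit at day 5 against day 0, 14 of its 21 members fell and the other 7 did not pass the test, with a median log2 change of -2.48, against 7.9% of all 99136 tested transcripts called lower and 4.98% called higher, and a median of -0.03 over all of them. Each change is a difference of log2(RPKM + 1), a scale that makes changes of low transcripts look small, with the standard error (SE) of the fit, and it counted as called where the limma adjusted p was below 0.05. At day 8 against day 0, 16 of 21 fell and 5 did not pass (background 5.68% lower and 4.87% higher), with a median of -3.52. Between day 8 and day 5, 10 of 21 fell and 11 did not pass (background 1.78% lower and 2.89% higher).

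The most abundant was a form of oleosin 18.2 kDa, comp112828_c0_seq9, named for a cotton oleosin. It stood at 469 and 404 RPKM at day 0. On day 5 it stood at 0 and 2.23 RPKM with ABA, 0.672 and 0.673 RPKM with NDGA, and 34.5 and 40.1 RPKM with water, and at day 8 at 0 and 0.711 RPKM with ABA, 0 and 1.37 RPKM with NDGA, and 0.347 and 0 RPKM with water. Both water libraries of day 5 lay far above every ABA and NDGA library and far below both of day 0, with no overlap. In water fruit it fell by 3.51 (log2; SE 0.50, adjusted p = 4.1e-04) at day 5 against day 0 and by 5.04 (SE 0.50, adjusted p = 4.8e-05) at day 8 against day 5.

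Oleosin 1, comp100785_c0_seq2, followed the same course. Its RPKM was 411 and 393 at day 0. By day 5 it was 0 and 0.156 with ABA, 0 and 0 with NDGA, and 25.1 and 28.3 with water, and at day 8 it was 0.299 and 0.597 with ABA, 0.627 and 0 with NDGA, and 0 and 0 with water. Only the 4 water libraries of days 0 and 5 held more than 1 RPKM. It fell by 3.87 (SE 0.29, adjusted p = 1.6e-06) in water at day 5 against day 0, and fell by 8.65 (SE 0.29, adjusted p = 7.3e-10) at day 8 against day 0. A change fitted against libraries at 0 depends on the pseudocount and is no bound on the fold.

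A second oleosin 18.2 kDa form, comp113947_c0_seq5, had 323 and 281 RPKM at day 0. At day 5 it had 0.142 and 0.155 RPKM with ABA, 0.838 and 0.140 RPKM with NDGA, and 36.8 and 25.2 RPKM with water, and no library of day 8 exceeded 0.998 RPKM. Oleosin Bn-V, comp95281_c0_seq1, a fragment named for a rapeseed oleosin, had 3.74 and 3.24 RPKM with water at day 5, against 27.1 and 32.9 RPKM at day 0, and was listed at 0 in the 10 other libraries. Lower forms did the same: P24 oleosin isoform A (comp100301_c0_seq1) had 1.08 and 0.509 RPKM at day 5, against 7.05 and 11.1 RPKM at day 0 (log2 change -2.48, SE 0.36), and oleosin 16.4 kDa (comp96093_c0_seq2) had 0.368 and 0 RPKM at day 5, against 10.9 and 11.9 RPKM at day 0, both in water fruit. All these forms were highest in both libraries of day 0.

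**Figure D3:**
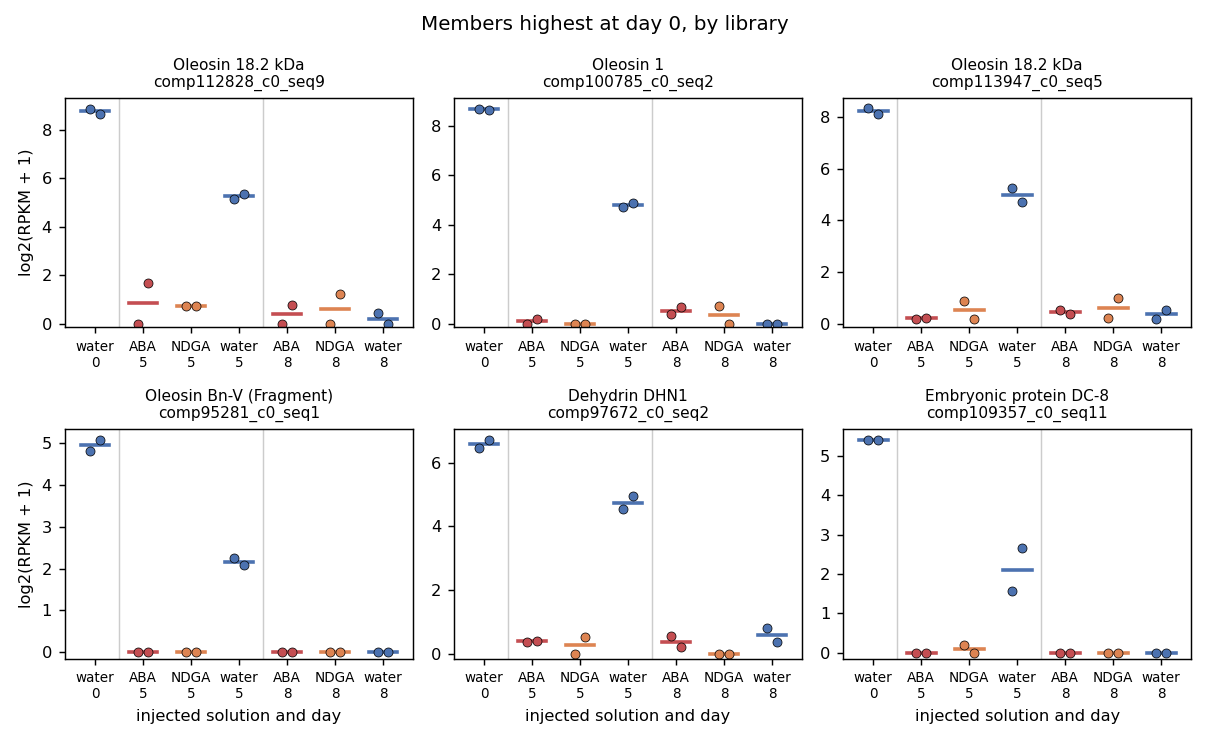
Level in each library, as log2(RPKM + 1) (points, with the mean of 2 as a bar), of 4 oleosins, dehydrin DHN1 and embryonic protein DC-8, by day with ABA and NDGA left of water. In each panel the 2 water libraries of day 0 are highest, those of water at day 5 come next, and the ABA and NDGA libraries of day 5 sit with those of day 8 near 0.

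By day 5 in water fruit, the 16 oil body members that averaged 5 RPKM or more at day 0 stood at 1.61% to 131% of that level, with a median of 8.91%. The summed oil body level was 2.61% and 2.56% of the summed seed storage level in the water libraries of day 5, against 6.79% and 7.12% in those of day 0. The difference of -4.37 percentage points had an exact permutation p of 0.333 (two-sided), the smallest that 2 libraries against 2 can give. At day 5 this share was 10.8% and 11.8% with ABA and 14.97% and 13.5% with NDGA, above both libraries of day 0. At day 8 it was 4.76% and 5.78% with water, 4.47% and 4.09% with ABA, and 8.2% and 5.62% with NDGA. In these treated and day 8 libraries the storage sum lay between 215 and 358 RPKM, while legumin A averaged 1.26 to 4.73 RPKM by group. The share is therefore no steady measure of oil body against seed storage transcripts. Of the 21 tested oil body members, 8 had a correlation over 0.9 with the summed storage level across the 14 libraries on the log2 scale, which describes libraries that share the day 0 and day 5 contrast.

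The most abundant oleosins were lower at day 5 with either injection than with water. With ABA, 8 of 21 oil body members were lower than with water (background 0.956% lower and 1.21% higher), and with NDGA 8 of 21 were lower (background 0.802% lower and 1.23% higher) in a comparison that draws on the same water libraries. Oleosin 1 fell by 4.68 (SE 0.29, adjusted p = 6.2e-07) with ABA and by 4.79 (SE 0.29, adjusted p = 5.4e-07) with NDGA, and oleosin 18.2 kDa (comp112828_c0_seq9) fell by 4.41 with ABA and fell by 4.51 with NDGA (SE 0.50 each), calls that did not pass with a pseudocount of 0.1 (-6.27 and -5.59). Another 2 forms of oleosin 1, 2 of oleosin 16 kDa, Bn-V and the second oleosin 18.2 kDa form fell too, the 8 by 1.84 to 4.78 with ABA and by 1.84 to 4.79 with NDGA. The seed storage list moved with them, with 41 of its 72 tested members lower with ABA and 44 lower with NDGA, and its part in these changes was not tested. Over both sets the count of 15 calls with ABA became 8 without either ABA library of day 5, and the 21 with NDGA became 11 and 12 without the first or the second NDGA library of day 5. Fitted on the 4 compared libraries alone, limma called 0 of 63 with ABA and 0 with NDGA (18 and 33 at an unadjusted p under 0.05), while voom over all libraries called 17 and 24.

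A pair of forms described as oleosin 16 kDa kept another course. The more abundant, comp99952_c1_seq1, had 12.3 and 19.0 RPKM at day 0. On day 5 it had 9.37 and 14.3 RPKM with ABA, 17.6 and 13.1 RPKM with NDGA, and 9.72 and 14.0 RPKM with water, and at day 8 it had 2.03 and 1.52 RPKM with ABA, 1.86 and 1.83 RPKM with NDGA, and 1.98 and 3.78 RPKM with water. All 8 libraries of days 0 and 5 lay above all 6 of day 8, and at day 5 the 3 injections overlapped. It fell by 2.11 (SE 0.32, adjusted p = 6.1e-04) in water at day 8 against day 0, and its fall of 1.75 (SE 0.32) at day 8 against day 5 did not pass without water day 5 replicate 2 (-1.51) or water day 8 replicate 1 (-1.41). The form comp99952_c0_seq1, chosen after its values were seen, had 5.58 and 6.54 RPKM at day 0, 7.05 to 10.4 RPKM in the 6 libraries of day 5 and 1.01 to 2.87 RPKM in those of day 8.

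Peroxygenases (caleosins) are calcium-binding oil body enzymes that oxidise fatty acids, and 3 forms of probable peroxygenase 4 were tested. The most abundant, comp106183_c1_seq2, had 9.28 and 5.24 RPKM at day 0. By day 5 it had 0.670 and 2.18 RPKM with ABA, 7.24 and 5.93 RPKM with NDGA, and 2.67 and 2.36 RPKM with water, and at day 8 it had 2.09 and 0.348 RPKM with ABA, 8.79 and 3.02 RPKM with NDGA, and 7.81 and 5.04 RPKM with water. The ABA libraries were the lowest of each day. At day 8, 2 of 21 oil body members were lower with ABA (background 8.98% lower and 4.3% higher), a share near the background that says nothing of the set. This form was one of them, with a change of -1.84 (SE 0.49, adjusted p = 0.025). The call did not pass without either water library of day 8 or without ABA day 8 replicate 2 (-1.24 to -2.11). The other, oleosin 16.4 kDa form comp128730_c0_seq1, named after its values were seen, had 17 reads in all, 0 RPKM in both ABA libraries of day 8 against 1.63 and 1.61 RPKM with water, and did not pass when any of these 4 libraries was left out. With NDGA at day 8, limma called 0 of 21 (background 1.48% lower and 0.705% higher), 1 at an unadjusted p under 0.05, and voom called 0.

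The LEA set was more mixed. In water fruit at day 5 against day 0, 26 of its 42 members fell, 7 rose and 9 did not pass (background 7.9% lower and 4.98% higher), with a median log2 change of -1.55. The 7 that rose were 2 forms of ERD14, 2 of LEA protein 1, and 1 each of COR47, LEA protein 2 and ASR2. At day 8 against day 0, 29 fell and 3 rose, both ASR2 forms and ERD14 comp109977_c0_seq1 (background 5.68% lower and 4.87% higher), with a median of -1.81. At day 8 against day 5, 14 fell and 2 rose, both of them ASR2 (background 1.78% lower and 2.89% higher). The shares that rose at day 8 were near the background in both comparisons. Fitted on the compared groups alone, the calls over both sets were 9 of 63 at day 5 against day 0 and 18 at day 8 against day 0, where the fit of all groups gave 47 and 48.

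Dehydrin DHN1 and embryonic protein DC-8, the second a seed LEA protein known from carrot embryos, followed the oleosins. DHN1 (comp97672_c0_seq2) had 86.4 and 104 RPKM at day 0. At day 5 it had 0.298 and 0.324 RPKM with ABA, 0 and 0.440 RPKM with NDGA, and 22.3 and 29.7 RPKM with water, and no library of day 8 exceeded 0.755 RPKM. In water it fell by 1.84 (SE 0.31, adjusted p = 0.0015) at day 5, less than oleosin 1 on the same scale, and stood at 27.3% of its day 0 mean. Whether the 2 falls differ was not tested. The summed storage list averaged 5448 ± 76.0 RPKM at day 5 and 20328 ± 1416 RPKM at day 0 (SD, n = 2 each). The correlation of DHN1 with the summed storage level was the highest of all 63 members (0.996 over 14 libraries).

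All 6 tested forms of DC-8 fell in water fruit at day 5 against day 0, with log2 changes of -2.09 to -3.55, the last for comp109357_c0_seq2. The form comp109357_c0_seq11 had 1.95 and 5.30 RPKM at day 5 in water fruit, against 41.4 and 41.2 RPKM at day 0, and was listed at 0 in 9 of the other 10 libraries. Further LEA proteins were low but fell too. LEA protein 76 (comp75614_c1_seq1) had 0.666 and 0.391 RPKM in water fruit at day 5, against 6.37 and 5.21 RPKM at day 0 (log2 change -2.15, SE 0.29). Group 3 LEA protein (comp61292_c0_seq1) had 1.32 and 0.258 RPKM at day 5, against 7.25 and 8.26 RPKM at day 0 (-2.36, SE 0.35). The row named only LEA protein (comp101936_c0_seq4) had 1.74 and 2.25 RPKM at day 5, against 6.67 and 11.6 RPKM at day 0 (-1.72, SE 0.34). In all 3 the libraries of day 5 lay below those of day 0. LEA protein D-29 (comp103909_c0_seq1), first described in cotton seed, had 14.3 and 13.8 RPKM at day 0, 4.23 and 5.07 RPKM with ABA, 0.716 and 0.574 RPKM with NDGA and 2.62 and 2.91 RPKM with water at day 5, and 0.607 to 2.05 RPKM in the 6 libraries of day 8. At day 5 its groups did not overlap, ABA lying highest and NDGA lowest, but neither change against water passed (0.58 with ABA and -1.19 with NDGA, SE 0.33 each). Dehydrin Xero 1 (comp100072_c0_seq3) had 2.92 and 1.29 RPKM at day 5 in water fruit, against 11.7 and 9.54 RPKM at day 0, a fall of 1.95 (SE 0.42) that did not pass without water day 0 replicate 1 (-1.81) or water day 5 replicate 2 (-1.56).

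At day 5, 7 of 42 LEA members were lower with ABA (background 0.956% lower), and 10 were lower and 3 higher with NDGA (background 0.802% lower and 1.23% higher). With ABA they were DHN1, 3 forms of DC-8, comp101936_c0_seq4, a form of LEA protein 2 and LEA protein 1. DHN1 (comp97672_c0_seq2) fell by 4.35 (SE 0.31) with ABA and by 4.48 (SE 0.31) with NDGA. Its assembly component holds 7 forms, some described as cold shock protein CS66, and its sum did not fall with NDGA. Summed as RPKM times length in kilobases, the component averaged 10.7 with ABA, 44.5 with NDGA and 40.2 with water at day 5. DC-8 (comp109357_c0_seq11) fell by 2.11 (SE 0.38) with ABA and by 2.01 (SE 0.38) with NDGA, which did not pass without water day 5 replicate 2 or either treated library (-1.46 to -2.11).

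**Figure D4:**
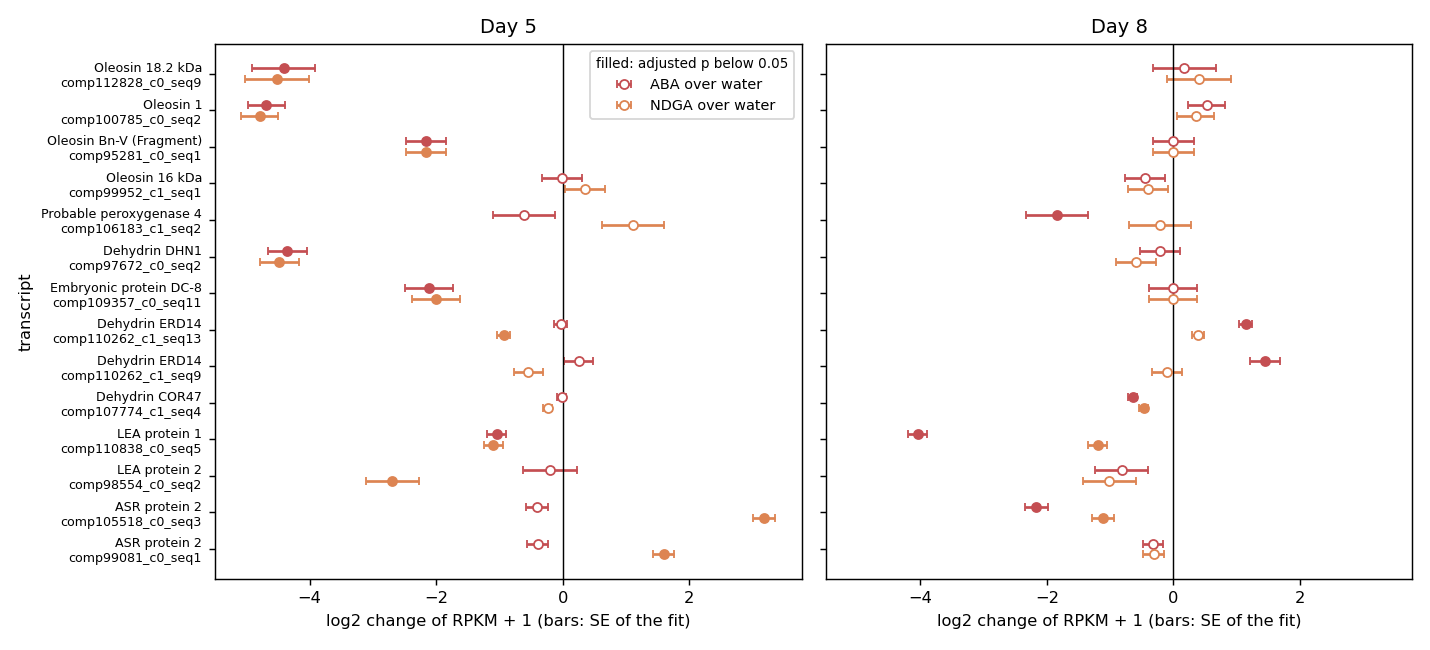
Log2 change (points, with the SE of the fit as bars) of 14 members with ABA and with NDGA against water at day 5 (left) and day 8 (right), filled where the adjusted p was below 0.05. At day 5 oleosin 18.2 kDa, oleosin 1, oleosin Bn-V, DHN1 and DC-8 lay far left for both injections. Oleosin 16 kDa lay near no change for both, and the ASR forms lay right for NDGA alone. At day 8 ERD14 lay right and LEA protein 1 far left with ABA.

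Dehydrin ERD14, a cytosolic stress dehydrin named for an Arabidopsis gene induced early by dehydration, gave the highest values of all members. Its form comp110262_c1_seq13 had 1373 and 1684 RPKM at day 0. On day 5 it had 3431 and 3738 RPKM with ABA, 1882 and 1961 RPKM with NDGA, and 3538 and 3782 RPKM with water, and at day 8 it had 2063 and 2232 RPKM with ABA, 1174 and 1377 RPKM with NDGA, and 897 and 1052 RPKM with water. The NDGA libraries of day 5 lay below those of ABA and water, and the ABA libraries of day 8 lay above those of NDGA and water, without overlap. In water fruit it rose by 1.27 (SE 0.10, adjusted p = 3.0e-06) at day 5 against day 0 and fell by 1.91 (SE 0.10, adjusted p = 1.4e-07) at day 8 against day 5. With ABA the change at day 5 did not pass (-0.03, SE 0.10), and it was higher at day 8 (log2 change 1.14, SE 0.10, adjusted p = 6.2e-06). With NDGA it was lower at day 5 (-0.93, SE 0.10, adjusted p = 1.8e-04), and the change of 0.39 at day 8 did not pass.

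That form is 226 bases long and shares its assembly component with 12 others, among them phosphoprotein ECPP44, a dehydrin of carrot whose description the search words miss. The ERD14 form took 34.7% of the reads of the component and an ECPP44 form 49.9%. Summed over all 13 forms, as RPKM times length in kilobases, the component averaged 1096 at day 0, 2131 with ABA, 1329 with NDGA and 2371 with water at day 5, and 1263 with ABA, 861 with NDGA and 755 with water at day 8. The groups lay in the same order for the form and the component, except that NDGA at day 5 was above ABA at day 8 in the component and below it in the form. A longer ERD14 form of the component, comp110262_c1_seq9, had 27.2 and 31.3 RPKM with ABA, 9.59 and 8.98 RPKM with NDGA and 10.8 and 9.35 RPKM with water at day 8, a change with ABA of 1.45 (SE 0.23, adjusted p = 9.9e-04).

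The ERD14 form comp109977_c0_seq1, from another component and named after its values were seen, moved the other way with ABA at day 8. It had 47.7 and 47.2 RPKM at day 0, 68.5 and 63.5 RPKM with ABA, 68.8 and 67.5 RPKM with NDGA and 73.8 and 76.8 RPKM with water at day 5, and at day 8 it had 50.5 and 52.7 RPKM with ABA, 88.4 and 90.1 RPKM with NDGA, and 80.0 and 83.8 RPKM with water. It was lower with ABA at day 8 by 0.66 (SE 0.10, adjusted p = 5.7e-04). COR47 (comp107774_c1_seq4), a cold-regulated dehydrin in Arabidopsis, had 1361 and 1498 RPKM at day 0. By day 5 it had 1738 and 1831 RPKM with ABA, 1545 and 1517 RPKM with NDGA, and 1805 and 1798 RPKM with water, and at day 8 it had 799 and 864 RPKM with ABA, 878 and 1002 RPKM with NDGA, and 1256 and 1342 RPKM with water. At day 8 both injections lay below water, with changes of -0.64 with ABA (SE 0.07, adjusted p = 4.0e-05) and -0.47 with NDGA (SE 0.07, adjusted p = 0.0028). In water fruit its rise of 0.34 at day 5 against day 0 did not pass without water day 0 replicate 1.

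Over the LEA set, 2 of 42 members were higher and 4 lower with ABA at day 8 (background 4.3% higher and 8.98% lower), and 3 were lower with NDGA (background 1.48% lower). The counts with ABA were near the background, so they say nothing of the set as a whole. The 2 that were higher were the ERD14 forms of a single component, and the 4 that were lower were COR47, ERD14 comp109977_c0_seq1, ASR2 (comp105518_c0_seq3) and LEA protein 1. With NDGA the 3 were COR47, ASR2 (comp105518_c0_seq3) and LEA protein 1. The median log2 change of all tested transcripts with ABA at day 8 was -0.20. Median-ratio and quantile scaling moved the changes of this comparison by 0.15 and 0.18 in the median over all transcripts. Under both scalings the 6 changes kept their directions. Fitted on the 4 compared libraries alone, limma called 1 of 63 with ABA and 0 with NDGA (7 at an unadjusted p under 0.05, and 3 by voom over all libraries), against 8 and 3 in the fit of all groups.

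ASR2 was the member that rose most with NDGA. Its form comp105518_c0_seq3 had 45.4 and 45.2 RPKM at day 0. At day 5 it had 15.9 and 12.8 RPKM with ABA, 182 and 183 RPKM with NDGA, and 16.2 and 22.8 RPKM with water, and at day 8 it had 19.3 and 26.5 RPKM with ABA, 46.7 and 49.6 RPKM with NDGA, and 110.1 and 100.4 RPKM with water. The NDGA libraries of day 5 were the highest of all 14, and the water libraries of day 8 came next. On day 5 the level rose by 3.18 with NDGA (SE 0.18, adjusted p = 2.2e-07), while the change of -0.41 with ABA did not pass. At day 8 it was lower with ABA by 2.17 (SE 0.18, adjusted p = 2.8e-06) and with NDGA by 1.11 (SE 0.18, adjusted p = 0.0044), a call that did not pass without water day 8 replicate 1 or NDGA day 8 replicate 1 (-1.05 and -1.07). In water fruit it fell by 1.19 (SE 0.18) at day 5 against day 0 and rose by 2.39 (SE 0.18) at day 8 against day 5.

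The second ASR2 form, comp99081_c0_seq1, had 10.3 and 9.49 RPKM at day 0. By day 5 it had 17.0 and 13.6 RPKM with ABA, 62.5 and 64.4 RPKM with NDGA, and 23.8 and 17.3 RPKM with water, and at day 8 it had 42.0 and 43.9 RPKM with ABA, 43.5 and 43.1 RPKM with NDGA, and 57.7 and 50.5 RPKM with water. It rose with NDGA at day 5 by 1.60 (SE 0.16, adjusted p = 9.8e-05), and in water by 2.33 (SE 0.16) at day 8 against day 0, but at day 8 neither change against water passed (-0.32 with ABA and -0.31 with NDGA, SE 0.16 each). A list of receptacle ripening transcripts summed to 3544 RPKM at day 0, to 2537 RPKM with ABA, 8167 with NDGA and 2758 with water at day 5, and to 3755 with ABA, 3579 with NDGA and 7798 with water at day 8. Like both ASR2 forms it was highest with NDGA at day 5 and with water at day 8, but at day 5 against day 0 in water its sum was lower while comp99081_c0_seq1 rose by 0.97 (SE 0.16). The sum does not describe most of the list there: of its 96 tested transcripts 28 rose and 8 fell, with a median log2 change of 0.43. The background was 4.98% higher and 7.9% lower, and the part of the list in the ASR2 changes was not tested.

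**Figure D5:**
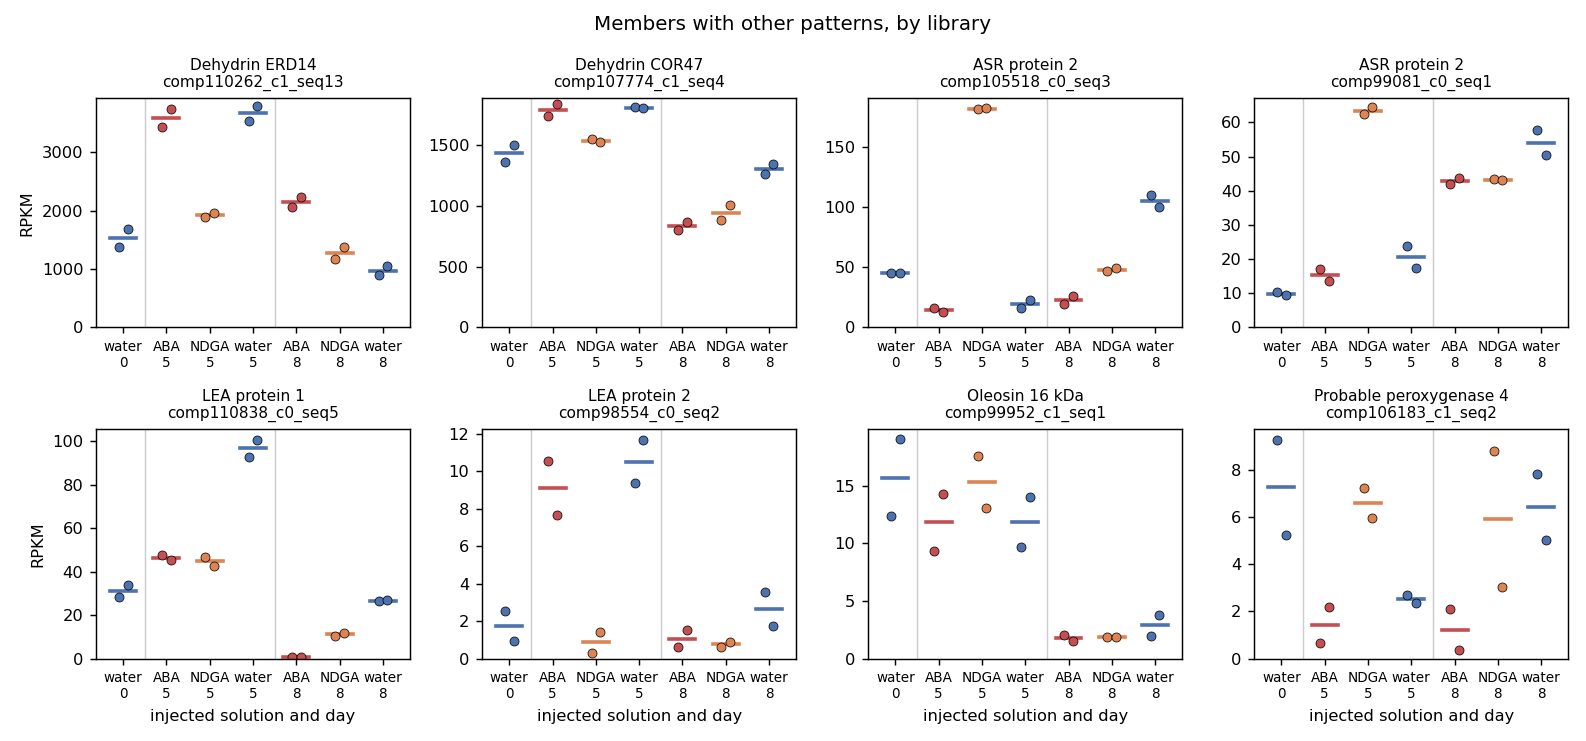
RPKM in each library (points, with the mean of 2 as a bar) of 8 members with other courses, by day with ABA and NDGA left of water. ERD14 and LEA protein 1 peak at day 5, both ASR2 forms peak with NDGA at day 5, and LEA protein 1 is near 0 with ABA at day 8.

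LEA protein 1 (comp110838_c0_seq5) showed the largest fall with ABA at day 8. It had 28.3 and 34.0 RPKM at day 0. At day 5 it had 47.6 and 45.4 RPKM with ABA, 46.7 and 42.7 RPKM with NDGA, and 92.8 and 101 RPKM with water, and at day 8 it had 0.755 and 0.604 RPKM with ABA, 10.3 and 11.9 RPKM with NDGA, and 26.3 and 27.0 RPKM with water. The water libraries were above both injections on each day, and at day 8 ABA and NDGA did not overlap. Against water it fell at day 5 by 1.04 with ABA and by 1.10 with NDGA (SE 0.15 each, adjusted p = 0.0019 and 0.0014), and at day 8 by 4.04 with ABA and by 1.20 with NDGA (SE 0.15 each, adjusted p = 1.2e-09 and 8.4e-04). In water it rose by 1.61 (SE 0.15) at day 5 against day 0 and fell by 1.82 (SE 0.15) by day 8. Its assembly component also holds forms described as aspartic proteinase A1, and the component as a whole summed to 1198 RPKM times kilobases with ABA, 905 with NDGA and 796 with water at day 8, so the sum was higher with ABA than with water while the form was lower.

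LEA protein 2 (comp98554_c0_seq2) had 2.52 and 0.916 RPKM at day 0. On day 5 it had 10.5 and 7.64 RPKM with ABA, 0.288 and 1.44 RPKM with NDGA, and 9.36 and 11.7 RPKM with water, and at day 8 it had 0.610 and 1.52 RPKM with ABA, 0.640 and 0.881 RPKM with NDGA, and 3.57 and 1.76 RPKM with water. Only the ABA and water libraries of day 5 were above 5 RPKM. It rose in water by 2.14 (SE 0.42, adjusted p = 0.0042) at day 5 against day 0, a call that did not pass without water day 0 replicate 2 (1.70). With NDGA at day 5 it fell by 2.69 (SE 0.42, adjusted p = 0.0034), which did not pass without water day 5 replicate 2 or NDGA day 5 replicate 1 (-2.55 and -2.23). The other form that rose with NDGA at day 5 beside the ASR2 pair, dehydrin Xero 1 comp96426_c1_seq1, named after its values were seen, had 18 reads in all and its change of 1.54 (SE 0.32) did not pass when any of the 4 libraries compared was left out.

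ABA and NDGA were also compared directly, a comparison added after the data were seen. At day 5, 3 of 42 LEA members were higher with ABA than with NDGA and 3 were lower (background 3.05% higher and 3.4% lower). The higher were LEA protein 2 (log2 change 2.49, SE 0.42), D-29 (1.78, SE 0.33) and ERD14 comp110262_c1_seq13 (0.90, SE 0.10), and the lower were both ASR2 forms (-3.59, SE 0.18, and -1.99, SE 0.16) and Xero 1 comp96426_c1_seq1 (-1.54, SE 0.32). At day 8, 3 were higher and 3 lower (background 3.95% higher and 7.07% lower), the share that was lower being near the background. ERD14 comp110262_c1_seq13 (0.75, SE 0.10) and comp110262_c1_seq9 (1.55, SE 0.23) and COR47 comp110262_c1_seq5 (1.29, SE 0.37), all of one component, were higher, and LEA protein 1 (-2.85, SE 0.15), ASR2 comp105518_c0_seq3 (-1.06, SE 0.18) and ERD14 comp109977_c0_seq1 (-0.78, SE 0.10) were lower. The COR47 form did not pass without either ABA library or NDGA replicate 1 of day 8. In the oil body set limma called 0 of 21 at either day (1 each at an unadjusted p under 0.05, and 0 by voom).

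The change of an injection's effect between days was tested directly. For ABA, the effect at day 8 minus that at day 5 was positive for 9 and negative for 3 of the 63 members (background 1.15% positive and 2.54% negative), and for NDGA it was positive for 9 and negative for 2 (background 0.857% positive and 1.79% negative). Of the positive ones, 6 for each injection were oleosins, none of which exceeded 1.37 RPKM in any library of day 8. With water near 0 at day 8 no further fall could show, so these differences, and those of DHN1, largely restate the day 5 changes. They show no separate effect of an injection at day 8. DHN1 and ERD14 comp110262_c1_seq13 were positive for both injections, and the values of each are 4.14 and 1.17 for ABA and 3.88 and 1.32 for NDGA. With ABA the negative ones were LEA protein 1 (-3.0, SE 0.22), ASR2 comp105518_c0_seq3 (-1.76, SE 0.25) and COR47 (-0.63, SE 0.10), the last of which did not pass under median-ratio scaling (-0.34). The count for NDGA was 7 without any one library of NDGA at either day or of water at day 8, against 11 with all.

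The transcripts most like the leading members were found by Pearson correlation of log2(RPKM + 1) over the 14 libraries among 9788 described transcripts averaging 10 RPKM or more in a group. For oleosin 18.2 kDa (comp112828_c0_seq9) they were an uncharacterized GPI-anchored protein (comp99886_c0_seq1, 0.992), acyl-carrier-protein desaturase 6 (comp98954_c0_seq1, 0.990), vicilin GC72-A (comp103515_c0_seq2, 0.990), legumin A (comp99294_c1_seq1, 0.987) and the second oleosin 18.2 kDa form (0.987). For ERD14 (comp110262_c1_seq13) they were a subtilisin-like protease (comp118442_c0_seq1, 0.961), a probable sucrose-phosphate synthase (comp115976_c1_seq1, 0.944), the ECPP44 form of its own component (0.935), mannan endo-beta-mannosidase 4 (comp102545_c1_seq5, 0.919) and the probable aquaporin PIP2-1 (comp91144_c0_seq1, 0.908). The libraries share their groups, so these values describe a common course only. At the other end, ASR2 comp99081_c0_seq1 had the lowest correlation of any member with the summed storage level (-0.74).

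Other lists of oil and drying genes were mixed in water fruit at day 5 against day 0, where 4.98% of all tested transcripts rose and 7.9% fell. Of 36 tested transcripts of seed maturation factors, 6 rose and 8 fell in water at day 5 against day 0, and of 52 of oil synthesis, 8 rose and 13 fell, with median log2 changes of 0.32 and 0.12. Of 42 of oil breakdown, 5 rose and 6 fell. Of 47 of desiccation sugars and partners, 5 rose and 18 fell, with a median of -0.98. Of 118 transcripts of a xylem list 10 rose and 41 fell, of 96 of the receptacle ripening list 28 rose and 8 fell, and of the 10 tested phloem protein rows set apart 2 fell. In the authors' deposited table of clustered transcripts, 4 of the 146 members are listed, ASR2 comp105518_c0_seq3 in cluster 4, the ERD14 forms comp110262_c1_seq13 and comp110262_c1_seq9 in cluster 5, and LEA protein 1 in cluster 6.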

How the data were processed

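Transcript levels were taken from the deposited table of 14 polyA RNA libraries, whose values are RPKM made by the authors on an assembly of their own reads, per the file headers. For the aligner, counter and assembly settings, the sources used here give nothing. The deposited list of clustered transcripts gives the authors' cluster number, used only as a label. Small RNA libraries were not used. Members and lists were chosen with earlier results of these data known.

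RPKM steps gave whole reads for 100% of values within 0.1 read, hence the depths given. Transcripts with RPKM 1 or more in at least 2 libraries (99136) were fitted as log2(RPKM + 1) in limma 3.58.1 (R 4.3.3) with 7 groups, a trended prior, 7 residual and 6.05 prior degrees of freedom, and Benjamini-Hochberg adjustment over all of them in each comparison, with adjusted p below 0.05 as the threshold. The fit was tested on simulated data. Sums, shares and figures were made in Python 3.11.15. Lines without a transcript name (8) were left out.

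Members were named in the text where they were the most abundant form of a description averaging 5 RPKM or more in a group, or had the smallest adjusted p or largest called rise or fall of a set in a comparison; 5 forms and the comparison of ABA with NDGA were chosen after the values were seen. Within groups the 2 libraries differed beyond sampling noise, with a median chi-square per transcript of 1.22 to 1.64 where noise alone gives 0.455. Same-numbered libraries deviated together only weakly (correlation 0.0503 to 0.101 over 21 pairs of groups), so the number was not used as a block. Alternatives were a pseudocount of 0.1, a filter of RPKM 5 or none, scaling to a common sum, median-ratio and quantile scaling, the compared groups alone, the replicate number as a block, sums per assembly component, voom on the recovered reads and each library left out.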

Additional observations from a re-analysis of the deposited data

Results flagged for a closer look

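For the members below, the effect of an injection differed between days 5 and 8 by a test of the difference itself in limma, given as the log2 change against water at day 8 minus that at day 5. With ABA the difference was positive for the seed-type members: 5.21 for oleosin 1 (comp100785_c0_seq2), 4.58 and 4.87 for oleosin 18.2 kDa (comp112828_c0_seq9 and comp113947_c0_seq5), 2.16 for oleosin Bn-V (comp95281_c0_seq1), 4.14 for dehydrin DHN1 (comp97672_c0_seq2) and 2.11 for embryonic protein DC-8 (comp109357_c0_seq11). With NDGA the same difference was 5.14 for oleosin 1, 4.92 and 4.69 for these oleosin 18.2 kDa forms, 2.16 for oleosin Bn-V and 3.88 for DHN1. All were lower than water at day 5, while at day 8 none of them exceeded 1.37 RPKM with any injection. The calls of oleosin Bn-V and DC-8 did not pass when most single libraries were left out.

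Dehydrin ERD14 (comp110262_c1_seq13) had a positive difference of 1.17 with ABA and 1.32 with NDGA. Negative differences were found with ABA for LEA protein 1 (-3.0), ASR2 comp105518_c0_seq3 (-1.76) and dehydrin COR47 (-0.63), and with NDGA for ASR2 comp105518_c0_seq3 (-4.29) and ASR2 comp99081_c0_seq1 (-1.91). For the last 2 the level with NDGA was above water at day 5 and not above it at day 8.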

How the results depend on the processing

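No called change of a single form named in the text turned its direction under the alternatives refitted form by form. Changes that did not pass in either fit were not checked for direction. Sums per component were compared by counts of calls only. The component of LEA protein 1 also holds forms described as aspartic proteinase A1, so its sum is no measure of the LEA form alone. That sum at day 8 was higher with ABA (1198) and NDGA (905) than with water (796) while the form fell. Of the calls, 87 of 122 for named members were kept in every alternative refitted form by form other than the fit of the compared groups alone. That fit has 2 residual degrees of freedom for 4 libraries and called, of 63 members, 9 at day 5 and 18 at day 8 against day 0, 0 at day 8 against day 5 in water (limma; 31 at an unadjusted p under 0.05, and 26 by voom over all libraries), 0 with ABA and 0 with NDGA at day 5, 1 with ABA and 0 with NDGA at day 8, and 1 and 3 between ABA and NDGA at days 5 and 8; with all groups these were 47, 48, 26, 15, 21, 8, 3, 6 and 6. Sums per component gave 29 calls of 38 components at day 5 against day 0 and 11 between ABA and NDGA at day 5. A filter of RPKM 5 gave 19 calls, against 12, for the ABA difference between days, and a pseudocount of 0.1 gave 7, against 11, for that of NDGA. The cause was not tested.

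With each library left out the calls were 40 to 44 at day 5 against day 0, 40 to 43 at day 8 against day 0, 19 to 20 at day 8 against day 5, 8 to 12 with ABA and 11 to 15 with NDGA at day 5, 6 to 7 and 2 to 3 at day 8, 5 to 6 and 5 to 7 between ABA and NDGA, and 8 to 11 and 7 to 9 for the ABA and NDGA differences between days. With the replicate number as a block they were 49, 49, 27, 15, 22, 8, 4, 8, 8, 12 and 11 in the same order, and ERD14 comp110262_c1_seq13 with NDGA at day 8 then passed (log2 change 0.39, limma adjusted p = 7.0e-04); the numbers did not pair the libraries. Median-ratio and quantile scaling moved the log2 changes of a comparison by up to 0.21 in the median over all transcripts, so single transcripts could move further. Members at a few reads, such as those near 0 after day 0, are limited by depth.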

Other observations

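The oil synthesis list lay apart in its sum between the injections at day 5. It was drawn by words of the description for acyltransferases, fatty acid desaturases and oil body proteins, not by tissue or cell compartment. Its transcripts summed to 1402 and 1445 RPKM with ABA, 785 and 774 RPKM with NDGA, and 1069 and 1044 RPKM with water, without overlap. Of 52 tested, 5 rose and 5 fell with ABA (background 1.21% higher and 0.956% lower), while with NDGA 8 fell (background 1.23% higher and 0.802% lower). With ABA the median log2 change was -0.10, with 20 above and 28 below 0, so the higher sum does not describe most of the list. Against NDGA directly, 7 were higher and 3 lower with ABA (background 3.05% higher and 3.4% lower). Transcripts for desiccation sugars and their partners lay in the other order, at 213 and 201 RPKM with ABA, 443 and 464 RPKM with NDGA, and 307 and 317 RPKM with water. Of 47 tested, 3 rose and 3 fell with ABA, and 3 rose and 1 fell with NDGA, against the same background shares. With NDGA the median log2 change was 0.02, with 24 above and 23 below 0, so the higher sum does not describe the list as a whole. Against NDGA directly, 7 were lower and 0 higher with ABA. The difference between the sums was not tested.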
